A study of Mus musculus with 6 samples.

Results

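Cd24a encodes CD24, a small glycoprotein held in the outer cell membrane by a lipid anchor, and its RNA was followed here in mouse retinal cells that received a Sox11 virus or a control virus. The gene was chosen from its measured values, because it differed widely between the groups. Its levels are therefore given as a description, with no test. It was found by gene name and holds 1 of the 26691 transcript rows of the deposited table, and is 1 of the 15450 named genes obtained by summing rows of the same name.

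In all, 6 libraries were compared, 3 labelled AAV-Control and 3 labelled AAV-Sox11. Mice of about 3 to 4 weeks at the start had an adeno-associated virus (AAV) injected into the eye 2 weeks before tissue was taken. The control virus is given as AAV-PLAP in the genotype label, and the Sox11 virus is spelled AAV-So11 there. The optic nerve of both groups was crushed 3 days before sacrifice, so an uncrushed retina is not part of the comparison. For each library, 3 retinas of 3 animals were pooled and dissociated, and live cells stained for the surface protein Thy1 were sorted and their polyadenylated RNA was amplified from a very low input. Control and Sox11 libraries of the same letter, A, B or C, were prepared on the same day, per the series description. Mouse strain, viral promoter and the cell types that the virus reached are not stated in the labels. The question was how forced Sox11, a transcription factor of developing neurons, changed the RNA of these cells after injury.

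CD24, called heat-stable antigen in the mouse, is made as a short protein that is cut to a still shorter peptide, attached to a glycosylphosphatidylinositol (GPI) anchor and densely covered with N- and O-linked sugars. It binds partners on other cells and in its own membrane, among them P-selectin, Siglec-G and the adhesion molecules L1 and contactin-2, and signals through Src-family kinases. In the nervous system it is known from young neurons that are extending processes, and it declines as they mature. Outside the nervous system it is carried by B lymphocyte precursors, neutrophils, mouse red cells and many epithelia.

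The single Cd24a row is transcript ENSMUST00000058714, which lies on the forward strand of GRCm38 at chr10:43579169-43584265 and has 1816 bases in 2 exons. GENCODE annotates 3 transcripts at the gene (chr10:43578284-43584265), and the other two are not in the analysis. The coding sequence takes 231 bases with its stop codon, or 12.7% of the transcript, and encodes 76 amino acids. The 5′ untranslated region has 85 bases and the 3′ untranslated region 1500 bases, which is 82.6% of the transcript. The coding sequence spans chr10:43579254-43582765 with an intron inside. It is shown because processed copies of the gene elsewhere in the genome carry nearly the same letters, so that reads from it could be assigned to another gene. In the first sequence the capitals mark the bases of exon 2. In the second, the stretch of the pseudogene Gm6212 at chr14:119644012-119644231 (forward strand) that aligns to Cd24a, the capitals mark bases that differ from Cd24a.
Cd24a coding sequence: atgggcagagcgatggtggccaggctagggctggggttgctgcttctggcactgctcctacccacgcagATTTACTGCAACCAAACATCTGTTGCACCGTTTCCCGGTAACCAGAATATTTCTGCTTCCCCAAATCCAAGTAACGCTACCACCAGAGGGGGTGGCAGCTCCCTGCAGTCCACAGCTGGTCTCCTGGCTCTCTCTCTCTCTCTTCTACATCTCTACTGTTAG
Gm6212 aligned stretch: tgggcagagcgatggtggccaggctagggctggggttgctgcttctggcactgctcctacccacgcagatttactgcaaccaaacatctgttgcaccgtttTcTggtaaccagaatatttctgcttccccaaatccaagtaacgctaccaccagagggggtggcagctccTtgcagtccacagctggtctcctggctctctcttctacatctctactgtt

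The Gm6212 stretch differs from Cd24a by 3 substitutions and lacks 8 of its bases, an identity of 95.2% over 228 aligned positions. The other 2 processed pseudogenes found align to the same region, Gm15352 on chromosome 8 at 91.9% identity and Gm34023 on chromosome 3 at 84.6%. The 3 pseudogenes are annotated as 217 to 270 bases long, and only annotated transcripts were searched. Whether their likeness to Cd24a continues past those ends in the genome was not examined. Among annotated transcripts of other genes, most of the Cd24a transcript had no such copy. Of its 1767 windows of 50 bases, 69 (3.91%) occur unchanged in a transcript of another gene, in each case Gm6212, and of the 1717 windows of 100 bases 2 do (0.116%). How reads that match both places were counted is not stated in the labels or headers. Gm15352, named for its likeness after its values were seen, measured 21.4, 27.5 and 14.5 in the controls and 28.1, 29.1 and 19.1 with Sox11 (log2 fold change 0.28 ± 0.31 SE, adjusted p = 0.606, limma). Its values overlapped between the groups.

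**Figure D1:**
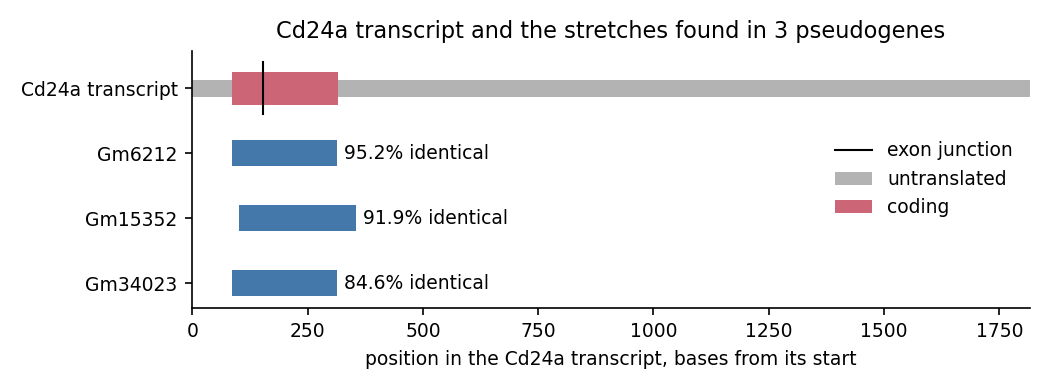
Map of the Cd24a transcript by position in bases from its 5′ end (horizontal axis), with the coding sequence as a thick block, the exon border as a line and the aligned stretches of 3 pseudogenes below, labelled with their percent identity. The copies as annotated cover the coding sequence and little of the 1500-base 3′ untranslated region. The genome beyond their annotated ends was not searched.

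Cd24a RNA was lower in every control library than in any Sox11 library. All values are the authors' normalized values, which are not read counts. The controls measured 285 in A, 102 in B and 281 in C. The Sox11 libraries measured 1423 in A, 1189 in B and 1638 in C. The lowest Sox11 library was 4.17 times the highest control, so the groups did not overlap. For scale, every Sox11 library was above every control in 2504 of 15450 genes, which is 16.2%. Control A and control C were nearly equal, while control B stood at 0.363 of the lower of them.

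The group means were 223 ± 105 (SD, n = 3) and 1417 ± 225 (SD, n = 3), a ratio of 6.36. On the log2(value + 1) scale the difference was 2.79 ± 0.38 (SE), which is 6.94-fold. Between libraries prepared on the same day the ratio was 4.99 in pair A, 11.7 in pair B and 5.83 in pair C. The wide ratio of pair B went with the low control, since Sox11 B was itself the lowest of its group. Leaving out control B gave the smallest log2 difference of 19 alternative calculations, 2.31, and the largest was 3.14. In the authors' deposited table the log2 ratio of the row was 2.67, the highest of all rows, and the next was Grap2 with 2.62. Against the mean of the control group, the authors' deposited table gave log2 ratios of 2.67, 2.41 and 2.87 for the 3 Sox11 libraries.

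**Figure D2:**
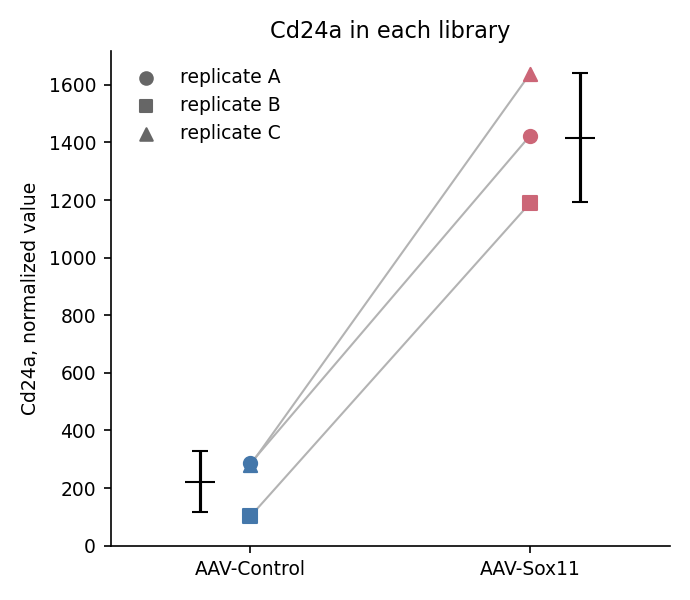
Normalized value of Cd24a in each library (points; vertical axis from 0), by group, with the mean and SD of 3 libraries per group and lines joining libraries prepared on the same day. The 3 Sox11 libraries lie between 1189 and 1638, above the 3 controls, which lie between 102 and 285.

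Within the libraries, Cd24a moved from the middle of the range of expression toward its upper end. Levels of genes were compared after scaling by transcript length, expressed per 1000000. On that scale Cd24a was gene 5959, 9942 and 6114 from the highest of 15375 in controls A, B and C. With Sox11 it was gene 905, 1247 and 742. Accordingly 35.3% to 61.2% of genes were lower than Cd24a in the controls and 91.9% to 95.2% in the Sox11 libraries. Its level was 30.9 ± 14.3 in the controls and 195 ± 32.0 with Sox11 (SD, n = 3).

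Its spread also differed between the groups in size. The SD of the 3 log2 values was 0.85 in the controls, and 95.4% of genes had a smaller one. With Sox11 it was 0.23, and 72.7% of genes had a smaller one. A control library at or below 0.5 of both of the others was uncommon but not peculiar to B. Control B had 222 such genes (1.44%), control A 217 (1.40%) and control C 150 (0.971%).

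Among all genes the log2 difference of Cd24a was the second highest. The highest, Gm10800, measured 2673, 59.8 and 63.7 in the controls and 1841, 1730 and 1263 with Sox11, so its groups overlapped (2.86, adjusted p = 0.237, limma). Below Cd24a followed Grap2 with 2.69 and Zap70 with 2.36, both known from T lymphocyte signalling. These genes were named from the order after their values were seen. Across the table, 7 genes reached a difference of 2 and 196 reached 1, while the median over all genes was 0.03. The test across all genes called 358 of them at an adjusted p under 0.05 (2.32%), of which 123 were higher with Sox11 (0.796% of genes) and 235 lower (1.52%). Before adjustment, 3762 genes (24.3%) had a p under 0.05. The share of calls that were higher was 34.4%, and 22.4% when libraries were scaled by their totals alone. These calls rest on all 3 Sox11 libraries. Without Sox11 A, B or C, limma called 0 genes, although 3120, 1942 and 2953 genes had an unadjusted p under 0.05. With the sex index described below as a covariate, or with the component that the authors had removed, limma also called 0 genes, although 2702 and 2582 had an unadjusted p under 0.05. Both statements hold for every gene described below as having risen or fallen.

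**Figure D3:**
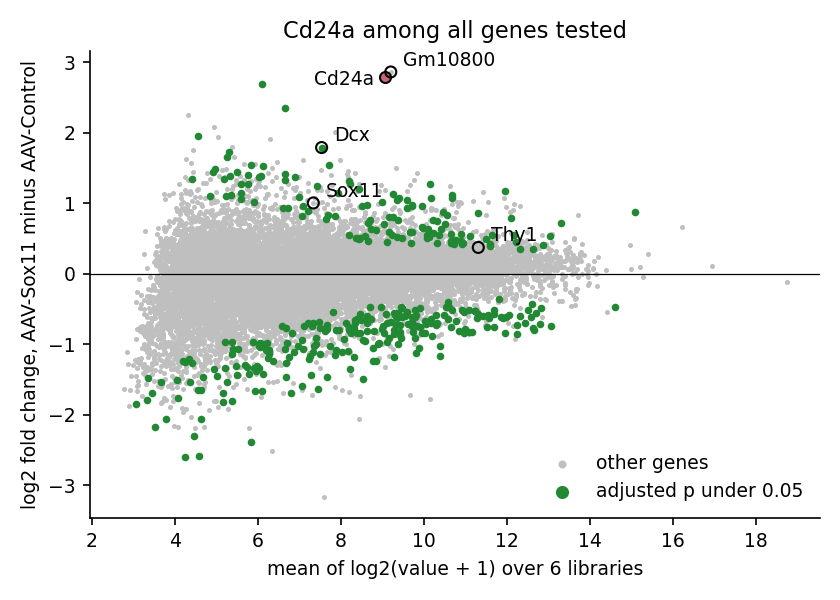
Log2 fold change of each of 15450 genes (vertical axis, AAV-Sox11 minus AAV-Control) against its mean log2(value + 1) over 6 libraries (horizontal axis), with genes at an adjusted p under 0.05 in green and 5 genes ringed. Cd24a, filled in red and given no test, lies at 2.79, just under Gm10800 at 2.86.

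The deposited values of Sox11 itself, the forced factor, were 131, 111 and 100 in the controls and 179, 234 and 284 with the Sox11 virus. Every Sox11 library was above every control, by 1.003 ± 0.20 (SE) on the log2 scale, with an adjusted p of 0.0504 in limma. Thus the gene that the virus carries differed 2.00-fold where Cd24a differed 6.94-fold. Whether the viral message, which need not hold the native untranslated regions, is counted in that row is not stated there either. Thy1, the surface protein used for sorting, measured 2070, 3079 and 1759 against 2654, 3272 and 2798, and the groups overlapped (0.37 ± 0.20 SE, adjusted p = 0.292). Doublecortin (Dcx), a microtubule protein of migrating young neurons, measured 114, 128 and 66.6 against 272, 403 and 374. It rose by 1.79 ± 0.27 (SE) on the log2 scale (adjusted p = 0.0247), with no overlap.

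Other measurements moved with the groups. The pools differed in sex make-up: the mean log2 value of Ddx3y, Kdm5d, Eif2s3y and Uty minus that of Xist, each centred on its mean over the 6 libraries, was 0.23, 0.26 and 1.79 in the controls and 0.18, -1.06 and -1.40 with Sox11. With that index as a covariate the Cd24a difference was 3.14 ± 0.61 (SE). Controls A and B and Sox11 A had nearly equal indices, and there Cd24a was 285 and 102 against 1423. A component of variation between libraries had also been taken out of the values before deposit, and Sox11 B carried 57.7% of its squared weight. That direction was nearly at right angles to the group difference (cosine 0.019).

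In sorted bulk cells, a larger share of cells carrying Cd24a and more Cd24a RNA per cell cannot be told apart. Markers of other cell types known for CD24 were checked in the same libraries. Of 8 neutrophil genes 0 were among the genes analysed. The 1 erythroid gene of 8, Alas2, the first enzyme of heme synthesis in red cell precursors, was 168, 138 and 130 against 83.4, 68.5 and 56.3 and fell by 1.07 ± 0.19 (SE) on the log2 scale (adjusted p = 0.0425). The 1 epithelial gene of 8, the keratin Krt18, was 37.3 to 57.3 against 26.1 to 39.6, with overlapping groups. Of 8 T lymphocyte genes 3 were analysed (Cd5, Cd4 and Lat), and their sum was 130 to 301.1 in the controls and 300.7 to 549 with Sox11. The part of any of these cell types in the Cd24a difference was not tested.

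The sort was also read against retinal markers. The 10 ganglion cell genes analysed of 12 summed to 7167 to 10478 in the controls and 8966 to 11767 with Sox11. Rod genes (8 of 8) summed to 37813 to 59859 and 23600 to 43214, Muller glia genes (7 of 8) to 36080 to 65877 and 48808 to 57740, amacrine genes (6 of 8) to 9385 to 13181 and 10708 to 13112, and microglia genes (6 of 8) to 7252 to 18572 and 7306 to 11137. RNA of several retinal cell types was thus present beside that of ganglion cells, and these ranges overlapped. Bipolar genes (7 of 8) were lower in every Sox11 library, 6189 to 7138 against 7257 to 10071. Whether any of these shares in the Cd24a difference was not tested.

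Neighbours of Cd24a on chromosome 10, named by position after their values were seen, did not show its difference in size. Bend3 measured 74.8, 32.4 and 49.2 against 46.9, 39.5 and 41.2 (-0.21 ± 0.31 SE, adjusted p = 0.705), with overlapping groups. Pdss2, an enzyme of coenzyme Q synthesis, measured 234, 296 and 243 against 327, 341 and 311 (0.35 ± 0.12 SE, adjusted p = 0.148), with every Sox11 library above every control.

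The known partners and signalling kinases of CD24 were followed as a list of 15 genes, of which 8 were analysed. In limma 0 of the 8 passed the test, with 4 at an unadjusted p under 0.05, beside 24.3% of all genes. Their median log2 fold change was 0.14, beside 0.03 over all genes, and from 0.00 to 0.31 over the alternatives. Above 0 were 5 of the 8, beside 53.8% of all genes. L1cam, the neural adhesion molecule that CD24 binds, measured 270, 312 and 187 against 340, 438 and 398, without overlap (0.64 ± 0.20 SE, adjusted p = 0.116). Cntn2 (contactin-2), itself a GPI-anchored adhesion protein, measured 1546, 1318 and 2024 against 1087, 1065 and 1412, and the groups overlapped (-0.44 ± 0.18 SE, adjusted p = 0.18). Hmgb1, a nuclear protein that CD24 binds when released, measured 516, 489 and 480 against 535, 556 and 565 (0.16 ± 0.08 SE, adjusted p = 0.295).

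Integrin beta 1 (Itgb1), a subunit of matrix receptors, measured 579, 535 and 628 against 717, 738 and 829, without overlap (0.39 ± 0.10 SE, adjusted p = 0.0784). Its partner Itga4 measured 2564, 2189 and 2262 against 3610, 3210 and 2741, also without overlap (0.44 ± 0.12 SE, adjusted p = 0.0822). Of the Src-family kinases, Lyn measured 51.4, 50.01 and 65.6 against 59.4, 35.3 and 31.2 (-0.45 ± 0.28 SE, adjusted p = 0.358). Fyn differed by 0.13 ± 0.26 (SE, adjusted p = 0.792) and Yes1 by -0.09 ± 0.14 (SE, adjusted p = 0.729), and all 3 kinases overlapped between the groups. With the day of preparation as a block, limma called 2 of the 8, Cntn2 (adjusted p = 0.0458) as lower and Itga4 (adjusted p = 0.0474) as higher. That fit called 737 of all genes, where the main fit called 358. Per length and per 1000000, Cd24a ranked 6 of 9 among these genes in the controls and 1 of 9 with Sox11.

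The enzymes that build the GPI anchor and attach it to proteins such as CD24 were followed as 28 genes, of which 23 were analysed. In limma 0 passed, with 6 of 23 at an unadjusted p under 0.05, close to the 24.3% of all genes. Their median log2 fold change was 0.04, from -0.12 to 0.13 over the alternatives, and 18 of 23 were above 0, beside 53.8% of all genes. Among those farthest from 0, Pgap2, which remodels the lipid of the finished anchor, measured 30.1, 48.1 and 29.9 against 12.5, 18.7 and 22.1 (-0.98 ± 0.30 SE, adjusted p = 0.113). Pigw, an acyltransferase of anchor synthesis, measured 15.5, 11.8 and 10.6 against 26.1, 21.8 and 16.1 (0.70 ± 0.28 SE, adjusted p = 0.181). Pgap1, which trims the anchor's lipid, and Pign, an anchor-building enzyme, differed by 0.26 ± 0.13 (SE, adjusted p = 0.252) and 0.11 ± 0.14 (SE, adjusted p = 0.640).

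Of 27 genes for O-linked sugars and the Lewis X epitope, the kinds of glycan that CD24 carries, 21 were analysed. In limma 1 rose and 0 fell, beside 0.796% and 1.52% of all genes. At an unadjusted p under 0.05 in either direction were 4 of 21, beside 24.3% of all genes. The median was -0.01, from -0.09 to 0.06 over the alternatives, and 10 of 21 were above 0, beside 53.8% of all genes. The gene that rose was St6galnac2, a sialyltransferase of O-glycans, with 178, 160 and 128 against 280, 294 and 248. Every Sox11 library was above every control, by 0.83 ± 0.15 (SE, adjusted p = 0.0447). The call was lost when any single library was left out. It was also lost with transcript rows tested singly, where only its row of highest mean value was read. Gcnt4, which branches O-glycans, had a log2 difference of -0.62 ± 0.52 (SE, adjusted p = 0.492), with 454 in control A and values of 97.4 to 123 in the other 5 libraries. C1galt1c1, the chaperone of the core O-glycan enzyme, measured 873, 976 and 900 against 837, 848 and 811 (-0.14 ± 0.08 SE, adjusted p = 0.337). Fut9, the brain enzyme for Lewis X, differed by -0.02 ± 0.13 (SE, adjusted p = 0.938).

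Other neuronal proteins held by a GPI anchor were followed as 47 genes, of which 33 were analysed. Of these 0 rose and 3 fell in limma, beside 0.796% and 1.52% of all genes. At an unadjusted p under 0.05 in either direction were 15 of 33, beside 24.3% of all genes. The median was -0.13, and 13 of 33 were above 0, beside 53.8% of all genes. Lypd1, a small protein of the Ly6 family, measured 448, 535 and 445 against 246, 271 and 277 and fell by 0.84 ± 0.12 (SE) on the log2 scale (adjusted p = 0.0204). Ntng1 (netrin-G1), a ligand at synapses, measured 1943, 1614 and 1715 against 1248, 1152 and 1099 and fell by 0.59 ± 0.10 (SE; adjusted p = 0.0313). Mdga2, which binds neuroligins, measured 2645, 2351 and 2899 against 1971, 1756 and 1806 and fell by 0.51 ± 0.10 (SE; adjusted p = 0.0480). None of these 3 overlapped between the groups. With libraries scaled by their totals 6 of 33 were called, and with upper-quartile scaling 5. These scalings called 459 and 455 of all genes, beside 358 in the main fit. The list depended on control A: without it the median was 0.01, the calls of Ntng1 and Mdga2 were lost and 1 gene was called higher. That gene was Cdh13, an adhesion protein of the cadherin family named after its values were seen, with 0.81 ± 0.23 (SE, adjusted p = 0.0920) over all libraries. The call of Mdga2 was also lost without control C and with transcript rows tested singly. There, its row of highest mean value, the only one read, differed by -0.29. With the sex index as covariate the difference of Mdga2 was -0.33 and the median of the list -0.28.

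Cntn4, an adhesion molecule of axons, measured 187, 115 and 110 against 99.02, 77.9 and 55.3 (-0.81 ± 0.28 SE, adjusted p = 0.141). The rule also named 2 adhesion proteins of the IgLON family for their normalized values, which are not scaled by length, Lsamp with a difference of 0.00 ± 0.08 (SE, adjusted p = 0.990) and Negr1 with -0.31 ± 0.08 (SE, adjusted p = 0.0752). Per length and per 1000000, Cd24a ranked 19 of 34 among the GPI-anchored genes in the controls and 5 of 34 with Sox11. Above it with Sox11 were Prnp (449 ± 35.4), Thy1 (418 ± 45.6), Negr1 (271 ± 2.97) and Lsamp (235 ± 10.8), and next below it was Rtn4rl1 (144 ± 7.80; each SD, n = 3). The Lsamp and Cd24a levels, 235 ± 10.8 and 195 ± 32.0, had SD ranges that reached each other.

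Of 34 genes of young or growing neurons, 32 were analysed, 6 rose and 0 fell in limma, beside 0.796% and 1.52% of all genes. At an unadjusted p under 0.05 in either direction were 21 of 32, beside 24.3% of all genes. The median was 0.32, and 21 of 32 were above 0, beside 53.8% of all genes. With the sex index as covariate the median was 0.10, and with genes of mean value of at least 50 alone it was 0.58. Those that rose, besides Dcx, were the polysialyltransferase St8sia4, the doublecortin-like kinase Dclk1, the tubulin-binding Stmn2, the semaphorin-response protein Dpysl3 and the microtubule protein Map1b. St8sia4 measured 93.2, 154 and 131 against 309, 377 and 402 and rose by 1.54 ± 0.20 (SE; adjusted p = 0.0200). Dclk1 measured 407, 639 and 391 against 967, 1104 and 881 (1.07 ± 0.20 SE, adjusted p = 0.0426). Stmn2 measured 445, 572 and 381 against 742, 1034 and 1105 (1.04 ± 0.20 SE, adjusted p = 0.0447).

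Map1b measured 27535, 27854 and 23020 against 42038, 49955 and 51164 (0.87 ± 0.12 SE, adjusted p = 0.0201). Dpysl3 measured 1192, 1171 and 817 against 1703, 2091 and 1982 (0.88 ± 0.16 SE, adjusted p = 0.0425). All 6 were above every control in every Sox11 library, beside 16.2% of all genes, and genes named for passing the test tend to be so. Each difference was smaller than that of Cd24a, which was chosen for its wide difference. With the sex index as covariate the difference was 1.11 for Dcx, 0.57 for Stmn2 and 0.48 for Dpysl3. Genes of the same list with lower values in the Sox11 group included Nnat (-0.90, adjusted p = 0.0818), Igfbpl1 (-0.78, adjusted p = 0.0963) and the Sox11 relatives Sox4 (-0.31, adjusted p = 0.368) and Sox12 (-0.58, adjusted p = 0.219), named after their values were seen. Dpysl2, a relative of Dpysl3, differed by 0.20 ± 0.09 (SE, adjusted p = 0.204). With the day of preparation as a block limma called 9 of the list, and 737 of all genes in place of 358. The added ones of the list were Neurod1 (adjusted p = 0.0488) as lower and St8sia2 (adjusted p = 0.0359) and Marcksl1 (adjusted p = 0.0418) as higher. Without control A 2 of the list were called, among 138 genes in all, and without control C the calls of Dclk1 and Stmn2 were lost. Per length and per 1000000, Cd24a ranked 16 of 33 among these genes in the controls and 8 of 33 with Sox11. There it lay between Basp1 (218 ± 43.1), a growth cone protein, and the RNA-binding Elavl3 (145 ± 8.61), and its SD range reached that of Basp1.

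**Figure D4:**
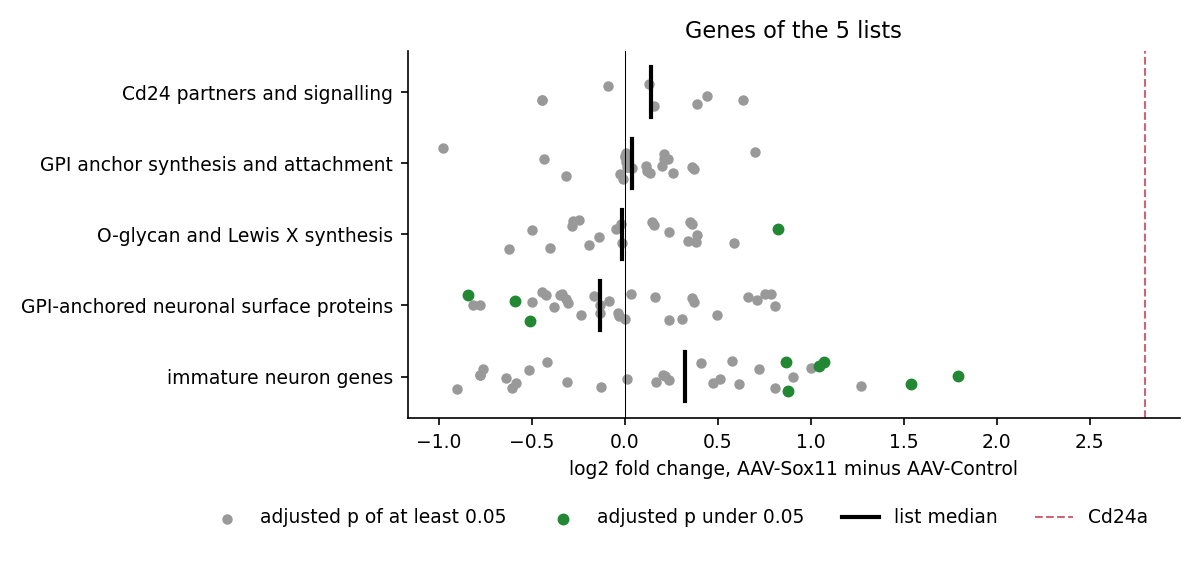
Log2 fold change (horizontal axis, AAV-Sox11 minus AAV-Control) of each analysed gene of 5 lists, with list medians as bars, genes at an adjusted p under 0.05 in green and Cd24a as a dashed line. The list medians lie between -0.13 and 0.32, and no gene of the lists reaches the 2.79 of Cd24a.

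Likeness to Cd24a was measured as the distance between profiles of log2(value + 1) over the 6 libraries, each centred on its own mean, so that both shape and size count. It describes 6 libraries that all genes share, and no p is given. The 8 nearest genes were Smpdl3a, Gm6341, S100a10, Mex3b, Grap2, C530050E15Rik, Capn6 and Gm27008, at distances of 1.89 to 2.09. Smpdl3a, a phosphodiesterase of the acid sphingomyelinase family, measured 70.9, 32.4 and 56.9 in the controls and 138, 116 and 130 with Sox11, the low control B included. S100a10, the partner of annexin A2, measured 66.0, 17.6 and 62.7 against 87.6, 78.9 and 150, also with its lowest value in control B. Capn6, a calpain-family protein that lacks protease activity, measured 16.5, 17.6 and 19.3 against 59.4, 51.9 and 44.2, without a low control B.

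Grap2, an adaptor of T cell receptor signalling, was nearest in the size of its difference, with 14.6, 38.2 and 31.8 against 166, 186 and 171. Unlike Cd24a, its lowest library was control A. Mex3b, an RNA-binding protein, measured 53.4, 50.01 and 91.7 against 162, 142 and 174. For all 8 genes every Sox11 library was above every control, beside 16.2% of all genes. Their choice by nearness to Cd24a, whose groups did not overlap, favours this. All 8 differences, 1.25 to 2.69 on the log2 scale, were smaller than that of Cd24a, itself the second highest of all genes. By shape alone, Pearson r to Cd24a over 6 libraries was at least 0.95 for 120 of 15449 genes (0.777%), of which 7 differed by 1 or more on the log2 scale. Itgb1, with r of 0.96, was the only gene of the 5 lists among the 120. The 8 genes of highest r shared 0 members with the 8 nearest by distance, and their log2 fold changes were 0.18 to 0.51.

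**Figure D5:**
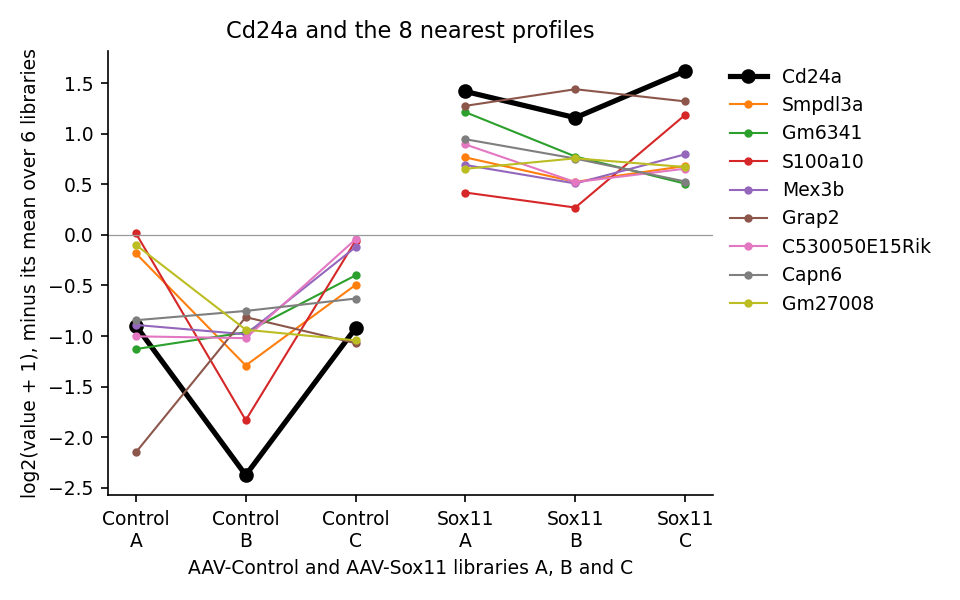
Log2(value + 1) of Cd24a and the 8 nearest genes in each library, minus the gene's own mean over 6 libraries (vertical axis); lines only link the points of a gene within a group. Cd24a has the lowest point of all in control B and the highest in Sox11 A and C.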

How the data were processed

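Polyadenylated RNA of Thy1-sorted retinal cells was measured in 6 libraries, 3 per group. CASAVA 1.8.2, the build mm10 and edgeR (version not given) are listed in the submitters' processing notes. For aligner, counter, strand and annotation release: not given in the sources used here. All values come from 1 deposited table with a row per Ensembl transcript. Its whole-number columns are treated as a score: of 5 directions in which 6 libraries can differ, 1 had an SD of 9.48e-05 natural log units over 1177 rows of mean above 2000, beside 0.098 for the next, so a component had been removed by the authors before deposit and the columns are not read counts. The authors' normalized columns, a signal, are those values times 1 factor per library. The log2 ratios of the authors' deposited table are quoted as such, and the p-values deposited by the authors were not used. Library totals of the whole-number columns were 10747985 to 11546892; read depth behind them is unknown, so counting errors are not given.

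From the normalized values, rows of 1 gene name were summed (10461 of 15450 genes have 1 row); 357 rows without a name, 0.422% to 0.517% of each total, were left out. Genes were tested with limma 3.58.1 in R 4.3.3 (moderated test with an abundance trend, two-sided) on log2(value + 1) with Benjamini-Hochberg adjustment over all 15450 genes and a threshold of 0.05; fold changes on this scale understate those of low genes. The script was tested on simulated data in which libraries varied independently and no component had been removed. The error rate on the deposited values was therefore not tested. Each library is a pool of 3 animals, so p-values rest on the spread between pools, part of which the authors removed. The main fit still counts the removed part as measured spread, which can make its p-values too small. A single-value exact permutation test of 3 against 3 cannot go below 0.1 and was not used. Levels compared between genes are per transcript length and per 1000000, with GENCODE M21 lengths for 26103 of 26334 named rows (99.1%). Sequences and coordinates are from the same release (GRCm38). Pseudogenes were found with blastn 2.17.0 among the annotated transcripts of that release, and the genome was not searched. Libraries of the same letter were made on the same day, per the series description, and the correlation of their deviations from the group means was 0.0025 for A, 0.793 for B and 0.236 for C. The named genes are Cd24a, Sox11, Dcx, Thy1, the 8 nearest profiles, all partners, and of each other list the members that passed, the 2 with the largest difference and the 2 of highest normalized value. Cd24a, the lists and the markers were chosen with earlier results of these data known. The sum of 1 marker list is not reported here. Alternatives were other scalings, filters, pseudocounts, covariates, a block for the day, rows tested singly and leaving out libraries.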

Additional observations from a re-analysis of the deposited data

How the results depend on the processing

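The Cd24a difference stayed between 2.31 and 3.14 on the log2 scale in 19 alternatives. Counts of calls depended more on the processing. With the replicate block for the day of preparation, 737 genes were called in place of 358, and 2 in place of 0 among the CD24 partners; in the other lists the block added Cntn2, Neurod1, St8sia2 and Marcksl1. With the removed direction or the sex index as a covariate 0 genes were called by limma (2582 and 2702 at an unadjusted p under 0.05). So 0 of the GPI-anchored, O-glycan and immature neuron lists were called. With the removed direction the Cd24a difference was 2.8, beside 2.79 in the main fit. The main fit counts that direction as spread although the values hold none there, which can make its p-values too small. For the sex index the cause was not tested. Scaling by totals or by upper quartile called 459 and 455 genes in all, with 6 and 5 GPI-anchored genes and 2 O-glycan genes with either. With rows tested singly, each list gene was read from its row of highest mean value alone, and 0 O-glycan genes were called. Leaving out 1 library or 1 pair called 0 to 745 genes in all, 0 to 4 GPI-anchored, 0 to 0 O-glycan and 0 to 7 immature neuron genes. The highest count came without control B, and without any Sox11 library no gene was called. Of the 10 list genes that rose or fell, 0 changed direction, while 95 of 190 repeats missed the threshold. Of the 8 nearest profiles 6 were the same with a pseudocount of 10. The 3 pools per group, values adjusted before deposit and unknown read depth limit what these data can show.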

Other observations

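Cell type markers and large differences beside Cd24a gave some single-gene values, chosen after they were seen. Il23r, the receptor subunit for interleukin-23, measured 1.93, 16.7 and 13.5 in the controls and 53.2, 45.7 and 31.2 with Sox11 (log2 fold change 2.25, adjusted p = 0.0988, limma). The T lymphocyte adaptor Lat measured 34.9, 54.9 and 65.6 against 105, 107 and 120, without overlap (1.12 ± 0.25 SE, adjusted p = 0.0578). Cd4, carried by T lymphocytes and some myeloid cells, measured 43.7, 47.1 and 147 against 236, 133 and 142 and overlapped (1.28 ± 0.47 SE, adjusted p = 0.154). Cd5 measured 51.4, 77.5 and 88.8 against 208, 95.5 and 39.2 (0.38 ± 0.55 SE, adjusted p = 0.705), so that the 3 T lymphocyte genes did not share one order of libraries. Ighm, the heavy chain of immunoglobulin M, measured 34.0, 47.1 and 102 against 22.9, 23.9 and 47.3 (-0.86 ± 0.45 SE, adjusted p = 0.283).

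Slc6a9, the glycine transporter of glycinergic amacrine cells, measured 462, 285 and 392 in the controls and 209, 186 and 190 with Sox11 and fell by 0.93 ± 0.18 (SE) on the log2 scale (adjusted p = 0.0481, limma). The other 5 amacrine genes analysed did not pass, and Gad2, which makes GABA, measured 7527, 10782 and 7410 against 8633, 10852 and 10880 (0.25 ± 0.17 SE, adjusted p = 0.380). Fn1, the matrix protein fibronectin, entered the 8 profiles nearest to Cd24a when the pseudocount was 10. It measured 2443, 939 and 1887 against 3379, 2952 and 3732, with its lowest value in control B as for Cd24a (1.03 ± 0.32 SE, adjusted p = 0.110).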
